A study of Mus musculus with 32 samples.

Results

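The 9 genes described here, Atp10d, Dysf, Wdfy1, Casp4, Glo1, Nnt, Ide, Pde6b and Entpd4, are genes for which a deletion, insertion, copy-number change or loss-of-function variant is known in common inbred mice. They were taken by gene symbol from the 49671 genes listed in the count tables, and each of the 9 was found once. The libraries are ribodepleted, stranded total RNA from the vomeronasal organ (VNO) epithelium, the tissue in the nose that detects pheromones, with 1 mouse per library and all mice at postnatal day 42. The strains are labelled C57/BL6 (B6), 129S6/SVEV (129, called 129Sv/J in the text of the study), SJL/J (SJL) and SWR/J (SWR), the labels name no engineered allele or treatment, and each strain has 4 females and 4 males. All reads were placed on the B6 reference genome, so a sequence that the reference lacks could not collect reads in any strain.

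Depth on genes ranged from 5106398 to 18640871 reads per library, with a median of 11461344.5. The 8 marker genes of vomeronasal neurons summed to between 28171 and 44178 normalized counts (counts divided by the size factor of the library) in every library, so the defining markers of the labelled tissue were present. The libraries of B6 female 1 and 129 male 1 stood apart, with the highest sums of gland markers (206295 and 193656) and of neutrophil markers (54284 and 39248), and values with and without them are given where a result rests on them. The background of a library, measured as reads on gene families of other tissues per 1000000 reads on genes (rpm), was lowest in 129, with a median of 0.858 rpm, against 3.58 rpm for SJL, 3.70 rpm for SWR and 7.28 rpm for B6.

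The genes cover several jobs of the cell. Atp10d belongs to the P4-ATPases, which flip lipids across membranes, and Dysf encodes dysferlin, which helps reseal torn membranes in muscle and other cells. Wdfy1 encodes an endosomal FYVE-domain protein that has been described as an adaptor in Toll-like receptor signalling, and Casp4 encodes the protease also called caspase-11, which senses intracellular bacterial lipopolysaccharide and drives pyroptosis. Glo1 encodes glyoxalase 1, which detoxifies methylglyoxal, and Nnt encodes the mitochondrial transhydrogenase that makes NADPH. Ide encodes the insulin-degrading enzyme, Entpd4 a nucleotide diphosphatase of the Golgi and lysosomes, and Pde6b a subunit of the rod phosphodiesterase of the retina. Several alleles are textbook material. C57BL/6J mice carry an exon deletion in Nnt and a premature stop in Atp10d, SJL/J mice a splice mutation in Dysf, SJL and SWR mice the rd1 allele of Pde6b, and 129 mice an inactivating variant of Casp4, while Glo1 and Ide lie in segments whose copy number varies between or within strains.

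Of the 9 genes, 7 had enough reads to be tested. Pde6b and Entpd4 had too few uniquely placed reads, and those of Entpd4 give no level of the gene, as set out below. A gene was called different between 2 strains when its log2 fold change (LFC) exceeded 1 in size and its false discovery rate (FDR) was under 0.05 in edgeR's quasi-likelihood test with Benjamini-Hochberg adjustment over the 18382 genes tested. By this rule 4 of the 7 tested genes, Atp10d, Wdfy1, Glo1 and Casp4, were called in at least 1 of the 6 pairs of strains, where 19.8% of all tested genes were. Between 129 and B6, where 11.1% of all tested genes were called, the calls were Atp10d, Wdfy1 and Glo1, higher in 129 (2.40% of tested genes were), and Casp4, lower in 129 (8.72%). Atp10d and Wdfy1 were also called higher in SJL than in B6 (2.67% of tested genes, 7.99% in both directions) and higher in SWR than in B6 (2.52%, and 8.05% in both directions). Glo1 was the one gene of the set called lower in SJL than in 129 (2.76% of tested genes, 8.38% in both directions) and lower in SWR than in 129 (3.11%, and 7.73% in both directions). Between SWR and SJL, 0 of the 7 were called (4.50%), although 3 had an unadjusted p under 0.05 and 2 of these, Atp10d and Ide, an FDR under 0.05, and DESeq2 called 0 as well. With an FDR under 0.05 and no limit on LFC, 5 of the 7 differed between 129 and B6 (52.8% of tested genes), 6 between SJL and B6 (45.7%), 4 between SWR and B6 (40.9%), 6 between SJL and 129 (38.3%), 4 between SWR and 129 (41.8%) and 2 between SWR and SJL (32.5%). All 7 tested genes had an FDR under 0.05 in the F test for any strain difference, as did 73.1% of all tested genes.

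**Figure D1:**
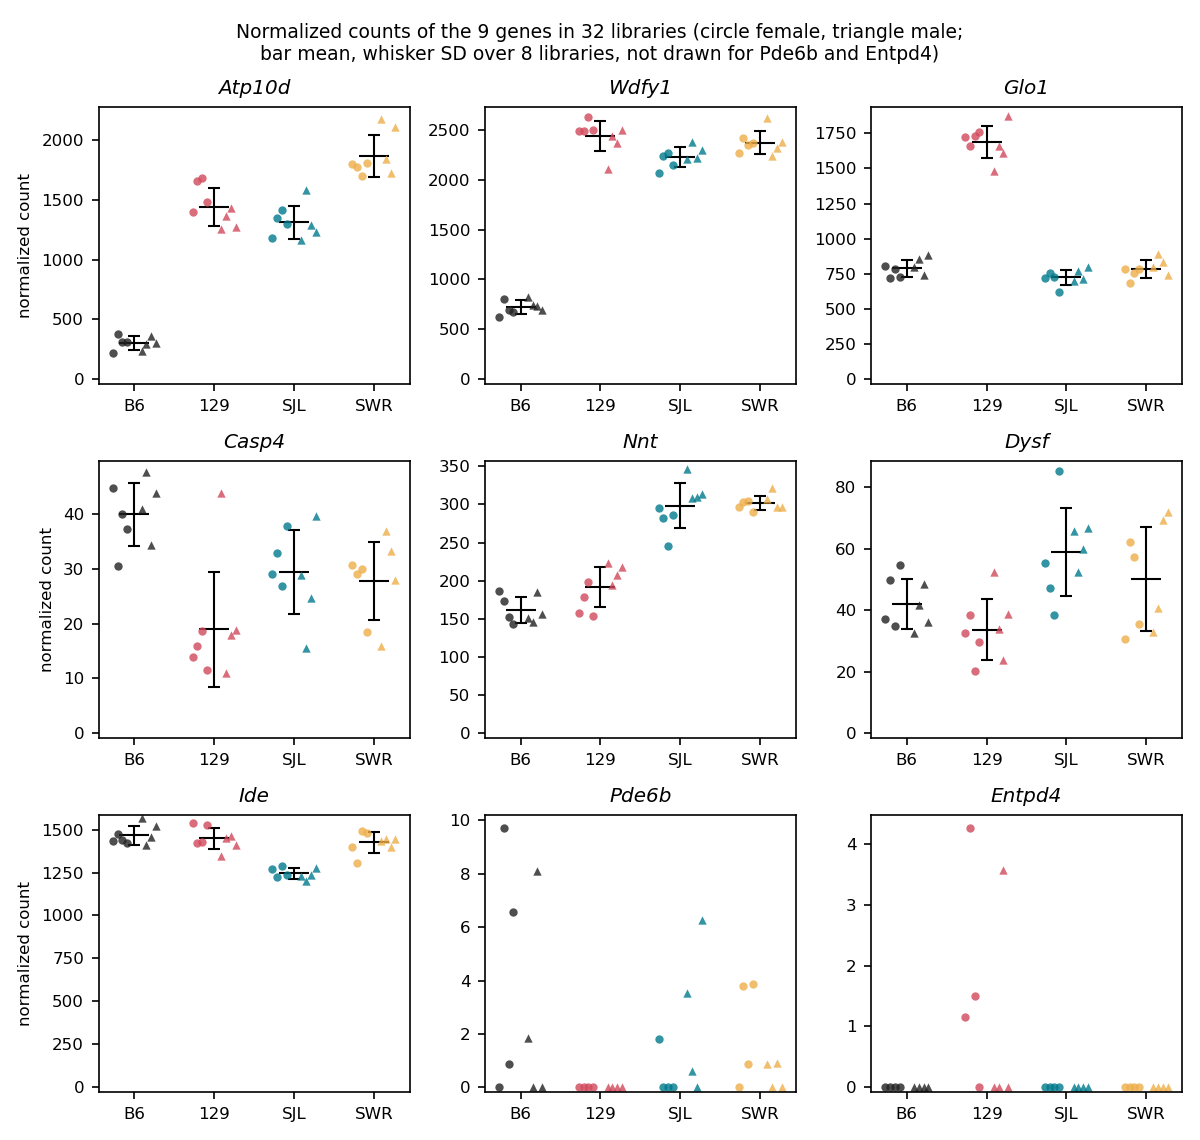
Normalized counts (y axis, linear) of each of the 9 genes by strain (x axis), 1 point per library, circles for females and triangles for males, with the mean and SD of 8 libraries as bar and whisker, left out for Pde6b and Entpd4. The B6 libraries of Atp10d (216 to 380) and Wdfy1 (621 to 821) lie below those of every other strain, and the 129 libraries of Glo1 (1481 to 1874) lie above.

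Atp10d had the widest gap between strains among the 7 tested genes. It lies at chr5:72203329-72298775 on the plus strand (GRCm38). The deposited counts list it as a polymorphic pseudogene, a gene that is intact in some individuals and disrupted in the reference. In the reference B6 sequence, the annotated coding sequence of Atp10d is interrupted by 1 in-frame stop codon, at codon 817 of 1469 (chr5:72264471-72264473). The stretch of this coding exon around the stop, chr5:72264426-72264518, is shown because it holds the lesion that the B6 strain is known for, with the stop codon in capitals.
Atp10d, B6 reference, 5′ to 3′: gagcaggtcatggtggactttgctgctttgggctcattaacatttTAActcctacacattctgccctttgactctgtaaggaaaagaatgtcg

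The 8 B6 libraries ranged from 216 to 380 normalized counts of Atp10d, with a median of 309. The 129 libraries ranged from 1255 to 1688 with a median of 1416. SJL ranged from 1163 to 1581 with a median of 1295. No B6 library reached the level of any other strain. SWR had the highest counts, from 1705 to 2181 with a median of 1806, and did not overlap 129 or SJL. Atp10d was 4.79-fold higher in 129 than in B6 (LFC 2.26, standard error (SE) 0.0911, edgeR FDR 1.2e-20), 4.34-fold higher in SJL (LFC 2.12, SE 0.0909, FDR 6.34e-20) and 6.16-fold higher in SWR (LFC 2.62, SE 0.0915, FDR 1.43e-22). Among the other strains, SWR exceeded 129 by an LFC of 0.36 (edgeR FDR 0.000554) and SJL by an LFC of 0.51 (FDR 9.07e-06), while the LFC of SJL against 129 was -0.14, with a 95% interval of -0.30 to 0.02. Only 152 of the 18382 tested genes (0.827%) were called lower in B6 than in each other strain, and Atp10d and Wdfy1 are among them.

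Of 17 listed genes of P4-ATPases and their partners, 16 were tested and 2 were called in at least 1 pair, beside 19.8% of all tested genes. Atp10b, of the same subfamily, was highest in B6 and lowest in SJL, with an LFC of -1.90 for SJL against B6 (SE 0.184, edgeR FDR 1.83e-10) and means of 88.4 ± 23.5 in B6 and 22.9 ± 8.77 in SJL (SD, n = 8). Atp10a was higher in SWR than in 129 by an LFC of 1.15 (SE 0.128, edgeR FDR 4.56e-09). Of the 6 nearest tested neighbours of Atp10d, 3 were called in a pair in which Atp10d was called, each of them lower than in B6. Of all tested genes, 19.8% were called in at least 1 pair, and 8.72% were called lower in 129 than in B6. Corin, a protease that activates natriuretic peptides and lies 1.25 kb after Atp10d, had an LFC of -1.21 for 129 against B6 (edgeR FDR 0.0178). This LFC was -1.87 without 129 male 1, and -1.35 without both B6 female 1 and 129 male 1. For SWR against B6, Corin had an LFC of -1.04 (edgeR FDR 0.0458). Without both libraries it was -0.54 (edgeR FDR 0.13) and was not called. The GABA receptor subunit genes Gabrb1 and Gabra4 had LFCs of -1.81 (FDR 0.000107) and -1.28 (FDR 0.00624) in 129 against B6.

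Dysf, at chr6:84008590-84211060 on the plus strand, gave low counts in all strains. B6 ranged from 32.6 to 54.9 normalized counts with a median of 39.5, and 129 ranged from 20.2 to 52.4 with a median of 33.2. SJL, the strain known for a Dysf splice mutation, ranged from 38.3 to 85.3 with a median of 57.8, and SWR from 30.8 to 71.9 with a median of 49.1. The 4 ranges overlapped, and SJL had the highest mean. No pair passed the limit on LFC. SJL exceeded 129 by an LFC of 0.81 (SE 0.19, edgeR FDR 0.000929) and B6 by 0.51 (SE 0.189, FDR 0.0283), and SWR exceeded 129 by 0.56 (SE 0.192, FDR 0.0179). A splice change need not alter the number of reads on a gene, and these counts do not show which exons were joined. The 10 skeletal muscle markers summed to between 59.7 and 161 normalized counts in all libraries, with medians of 103 for B6, 101 for SWR, 70.1 for SJL and 69.0 for 129, and their part in the values of Dysf was not tested.

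Of 17 tested genes of the ferlin family and of membrane repair (21 listed), 5 were called in at least 1 pair, beside 19.8% of all tested genes. In 129 against B6, 4 were lower and 0 higher (in all tested genes, 8.72% were lower), and the median LFC of the list was -0.33 beside -0.02 for all genes. The ferlin genes Fer1l4 (LFC -2.71, SE 0.705, edgeR FDR 0.00161), Fer1l5 (LFC -2.11, SE 0.705, FDR 0.0122) and Fer1l6 (LFC -1.33, SE 0.473, FDR 0.0186) were lower in 129 than in B6, each from a B6 mean under 11 normalized counts. Capn3, a muscle calpain, was lower in SWR than in B6 by an LFC of -1.35 (SE 0.273, FDR 0.000147). The background on families of other tissues was also lowest in 129, and its part in these low counts was not tested.

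Wdfy1, at chr1:79702262-79776143 on the minus strand, ranged from 621 to 821 normalized counts in B6, with a median of 713. In 129 it ranged from 2109 to 2628 with a median of 2489, in SJL from 2065 to 2382 with a median of 2224, and in SWR from 2241 to 2615 with a median of 2358. The B6 libraries were separate from all others, while 129, SJL and SWR overlapped. Wdfy1 was 3.37-fold higher in 129 than in B6 (LFC 1.75, SE 0.0505, edgeR FDR 5.17e-25), 3.07-fold higher in SJL (LFC 1.62, SE 0.0503, FDR 5.3e-24) and 3.26-fold higher in SWR (LFC 1.70, SE 0.0504, FDR 1.15e-24). Among the other strains the differences were small. SJL was lower than 129 by an LFC of -0.14 (edgeR FDR 0.0235), the 95% interval of SWR against 129 ran from -0.15 to 0.04, and that of SWR against SJL from -0.01 to 0.18.

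Of 17 tested genes of the WDFY family, other FYVE-domain proteins and Toll-like receptor signalling, 2 were called in at least 1 pair, beside 19.8% of all tested genes. Wdfy4, which acts in cross-presentation by dendritic cells, was lower in 129 than in each other strain and differed from SJL by an LFC of 1.60 (SE 0.199, edgeR FDR 4.98e-08). Irf7, a transcription factor of the interferon response, was lower in 129 than in B6 by an LFC of -1.35 (SE 0.25, FDR 3.25e-05). Among the 6 nearest tested neighbours of Wdfy1, only the potassium channel subunit gene Kcne4 was called in a pair in which Wdfy1 was called. Kcne4 was lower in 129 than in B6 (LFC -1.21, edgeR FDR 1.85e-06), as 8.72% of all tested genes were. Mrpl44 and Gm10555, whose spans overlap Wdfy1 on the other strand, had LFCs of -0.12 and -0.51 in that pair and were named here after their values were seen.

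**Figure D2:**
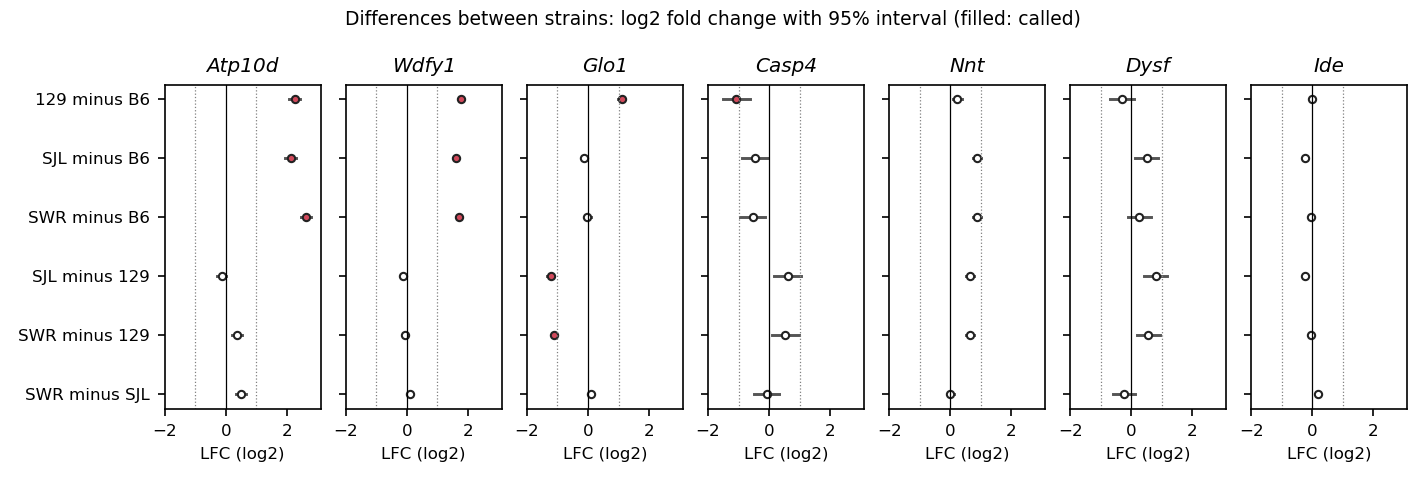
Log2 fold changes (x axis) of the 7 tested genes in the 6 pairs of strains (y axis), with 95% intervals and filled points where the absolute LFC exceeded 1 with an FDR under 0.05. Atp10d and Wdfy1 are called in the 3 pairs with B6, Glo1 in the 3 pairs with 129, and Casp4 in 129 against B6.

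Casp4, at chr9:5308828-5336783 on the plus strand, was lowest in 129, the strain known for an inactive allele. B6 ranged from 30.5 to 47.8 normalized counts with a median of 40.5. In 129 the range was 10.9 to 44.0 with a median of 16.9. SJL ranged from 15.6 to 39.7 with a median of 29.0, and SWR from 15.9 to 36.9 with a median of 29.6. The ranges of 129 and B6 overlapped through 1 library, 129 male 1 with 44.0, while the other 7 libraries of 129 stayed at 18.8 or below, under every B6 library. Casp4 was 2.10-fold lower in 129 than in B6 (LFC -1.07, SE 0.222, edgeR FDR 0.000138). SJL exceeded 129 by an LFC of 0.61 (SE 0.225, FDR 0.029), and the LFC of SWR against 129 was 0.53 (SE 0.225, FDR 0.056). Without 129 male 1 the LFC of 129 against B6 was -1.37 (edgeR FDR 4.18e-07), and without both B6 female 1 and 129 male 1 it was -1.35. The call rests close to its limit, since the LFC was -0.99 without 129 female 4, -0.98 without 129 male 2, and -0.70 (edgeR FDR 0.0251) with the background of the libraries as a covariate.

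Casp4 is known to be expressed in macrophages, and the macrophage markers were likewise highest in B6 and lowest in 129. All 10 macrophage markers were found, none of them at 0 in the mean of a strain, and their summed normalized counts ranged from 1410 to 1910 in B6, from 600.0 to 893 in 129, from 1221 to 1547 in SJL and from 856 to 1223 in SWR. The B6 sums lay above all 129 sums. The library 129 male 1 also had the highest macrophage sum of its strain. In bulk tissue, fewer cells of a type and less RNA per cell cannot be told apart, and the part of macrophages in the Casp4 difference was not tested.

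**Figure D3:**
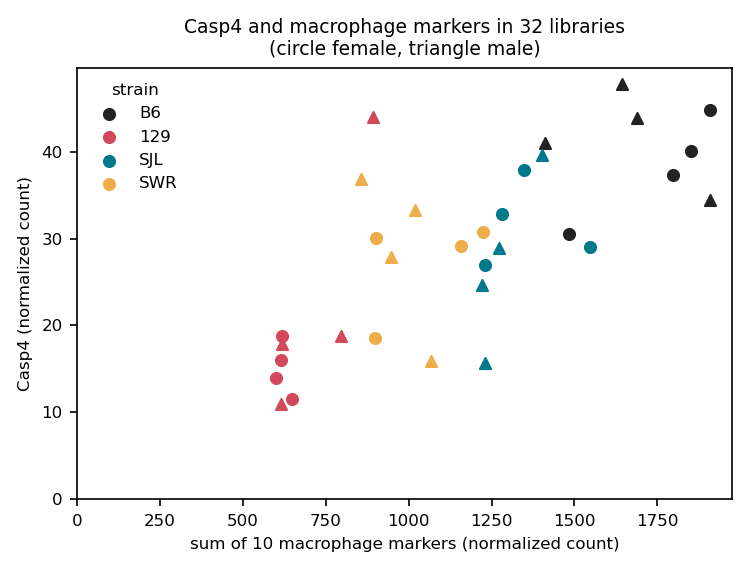
Casp4 (y axis, normalized count) against the sum of 10 macrophage markers (x axis, normalized count) in each of 32 libraries, coloured by strain. The 129 libraries lie at the lowest sums, 600.0 to 893, with 1 of them, male 1, at 44.0 counts of Casp4, and the B6 libraries at the highest, 1410 to 1910.

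Of 19 tested genes of inflammasomes, interferon-induced GTPases and pyroptosis (22 listed), 8 were called in at least 1 pair, beside 19.8% of all tested genes. In 129 against B6, 7 were lower and 0 higher, where 8.72% of all tested genes were lower, and the median LFC of the list was -0.89 beside -0.02 for all genes. Nlrp1b, an inflammasome sensor whose alleles differ between inbred strains, was lower in 129 by an LFC of -2.71 (SE 0.386, edgeR FDR 4.56e-07). The guanylate-binding protein genes Gbp3 and Gbp5, interferon-induced genes of defence inside cells, were lower by LFCs of -1.97 (FDR 4.71e-12) and -1.55 (FDR 1.99e-10). Il18, the cytokine released in pyroptosis, had another order and was higher in SWR than in SJL by an LFC of 1.46 (SE 0.17, FDR 1.8e-08). The same macrophage sums stand beside this list, and their part in it was not tested. Casp1 and Casp12, which flank Casp4, had LFCs of -0.34 and -0.93 for 129 against B6 and were named after their values were seen. Among the 6 nearest neighbours, only Gria4, a glutamate receptor subunit gene, was called where Casp4 was, with an LFC of -1.56 (edgeR FDR 8.68e-09), beside 8.72% of all tested genes called lower.

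Glo1, at chr17:30584936-30626871 on the minus strand, was the gene of this set that set 129 apart. The 129 libraries ranged from 1481 to 1874 normalized counts, with a median of 1693. B6 ranged from 722 to 887 with a median of 789, SJL from 618 to 800 with a median of 721, and SWR from 682 to 888 with a median of 785. Every 129 library lay above every library of the other strains, which overlapped each other. Glo1 was 2.14-fold higher in 129 than in B6 (LFC 1.10, SE 0.0527, edgeR FDR 1.72e-18), 2.34-fold higher than in SJL (LFC of SJL against 129 -1.23, SE 0.0526, FDR 7.91e-20) and 2.17-fold higher than in SWR (LFC of SWR against 129 -1.12, SE 0.0523, FDR 8.41e-19). Only 130 tested genes (0.707%) were called higher in 129 than in each other strain. With the background of the libraries as a covariate, the LFC of 129 against B6 was 0.96, under the limit. The exons of Glo1 overlap those of 1700097N02Rik on the same strand, and 1.84% of the read-length stretches of its transcripts also occur in Gm13443.

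Btbd9, a tested gene 8.45 kb from Glo1, was higher in 129 than in B6 by an LFC of 0.83 (SE 0.0559, edgeR FDR 1.73e-14), with LFCs of -0.88 for SJL and -0.94 for SWR against 129. It stayed under the limit on LFC. In the same pair Umodl1, 328 kb away, had an LFC of 0.47 (edgeR FDR 2.66e-07) and Zfand3, 374 kb away on the other side, one of 0.20 (FDR 0.00354). Dnah8, which overlaps the span of Glo1 on the other strand, had an LFC of 0.38 (edgeR FDR 0.104). These 4 neighbours were named after their values were seen. The neighbours called where Glo1 was called, Mdga1 and Glp1r, were lower in 129 than in B6, with LFCs of -1.76 (edgeR FDR 0.000118) and -1.04 (FDR 0.0166), the latter -0.92 and under the limit without 129 male 1. Of all tested genes, 8.72% were called lower in 129 than in B6. Copy number was not measured in these libraries. Of 12 tested genes of dicarbonyl and aldehyde detoxification, 1 was called in at least 1 pair, beside 19.8% of all tested genes. This was Akr1b8, an aldo-keto reductase, lower in SWR than in 129 by an LFC of -2.15 (SE 0.555, edgeR FDR 0.00209), with 129 at 17.5 ± 25.3 and SWR at 3.88 ± 2.11 normalized counts (SD, n = 8). Without 129 male 1 this LFC was -1.21 (edgeR FDR 0.0312). Akr1b8 was also called lower in SWR than in B6 (LFC -1.78, edgeR FDR 0.0137) and than in SJL (LFC -1.47, FDR 0.0499).

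**Figure D4:**
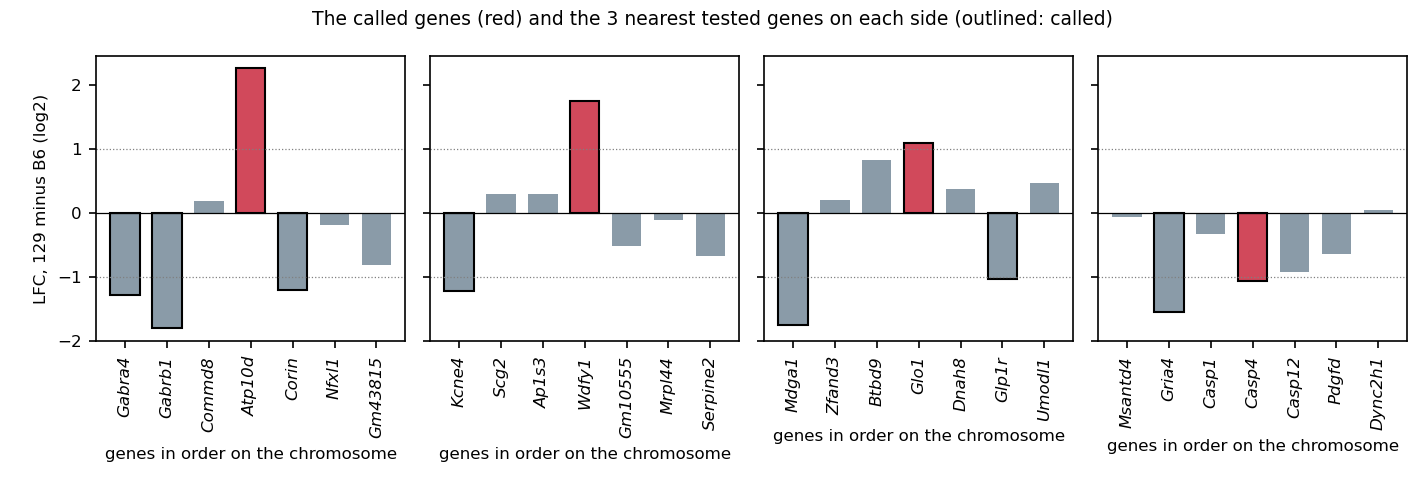
LFC of 129 against B6 (y axis, log2) for the 4 called genes (red) and the 3 nearest tested genes on each side in chromosomal order (x axis, not to scale), outlined where called. Btbd9 beside Glo1 lies at an LFC of 0.83, under the limit. The called neighbours of Atp10d, Wdfy1 and Glo1 are lower in 129. Of all tested genes, 8.72% were called lower in 129 than in B6 and 2.40% higher.

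Nnt, at chr13:119335448-119408997 on the minus strand, was low in B6 and in 129. B6, for which a deletion of several exons is known in the C57BL/6J line, ranged from 143 to 187 normalized counts with a median of 154. The 129 libraries ranged from 153 to 223 with a median of 197. SJL ranged from 246 to 347 with a median of 302, and SWR from 290 to 321 with a median of 300.0. SJL and SWR lay above every B6 and 129 library, while B6 and 129 overlapped. Nnt was 1.84-fold higher in SJL than in B6 (LFC 0.88, SE 0.0674, edgeR FDR 5.65e-13) and 1.86-fold higher in SWR (LFC 0.89, SE 0.0674, FDR 4.06e-13), both under the limit on LFC. In males alone the LFC of SJL against B6 was 1.01, which was called. This was the only 1 of 41 alternatives in which this pair passed both limits, and its LFC ranged from 0.75 to 1.01. Against 129 the LFCs were 0.64 for SJL (FDR 7.93e-10) and 0.65 for SWR (FDR 4.94e-10). The difference of 129 and B6 was smaller, with an LFC of 0.24 (SE 0.0692, edgeR FDR 0.00408), and that of SWR and SJL had a 95% interval of -0.11 to 0.14. The reads count exons that the B6 reference holds, so exons missing from it add nothing to the values of any strain.

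Of 19 tested genes of mitochondrial NADPH and peroxide handling, such as Idh2, Gsr and Prdx3, 0 were called in any pair, beside 19.8% of all tested genes. The median LFC of this list was 0.23 in 129 against B6 and 0.01 in SJL against B6, beside -0.02 for all genes in both. Beside 19.8% of all tested genes, 2 of the 6 neighbours of Nnt were called in some pair. These were 4833420G17Rik, lower in 129 than in B6 by an LFC of -1.44 (edgeR FDR 4.56e-20), and 3110070M22Rik, with an LFC of -1.39 (FDR 2.48e-06). Like Nnt, 4833420G17Rik was higher than in 129 in SJL (LFC 1.62, edgeR FDR 1.14e-21) and in SWR (LFC 1.82, FDR 2.65e-23), and both were called. Likewise, 3110070M22Rik was called higher in SWR than in 129 (LFC 1.04, edgeR FDR 0.000227). Both neighbours differed from Nnt in that B6 lay above 129, and both were named after their values were seen.

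Ide, at chr19:37268743-37337852 on the minus strand, had the smallest differences between strains among the 7 tested genes. B6 ranged from 1412 to 1567 normalized counts with a median of 1446, 129 from 1348 to 1537 with a median of 1440.2, and SWR from 1304 to 1493 with a median of 1440.0. SJL ranged from 1201 to 1288 with a median of 1237, below every library of the other strains. The gap was small. SJL was 1.18-fold lower than B6 (LFC -0.24, SE 0.0342, edgeR FDR 5.53e-07), 1.17-fold lower than 129 (LFC -0.22, SE 0.0341, FDR 2.25e-06) and 1.14-fold lower than SWR (LFC of SWR against SJL 0.19, SE 0.034, FDR 3.4e-05). Between B6 and 129 the 95% interval of the LFC ran from -0.08 to 0.05. The coefficient of variation of Ide within B6, where copy number is known to vary between mice of the C57BL/6J line, was 3.67%, beside 4.30% in 129, 2.44% in SJL and 4.16% in SWR. Of 16 tested genes of related metallopeptidases, other peptide-cleaving enzymes and insulin receptor signalling, 0 were called in any pair, beside 19.8% of all tested genes, and 0 of the 6 neighbours of Ide were called.

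Pde6b, at chr5:108388391-108432397 on the plus strand, had between 0 and 8 reads per library. In B6, 5 of 8 libraries had reads, 21 in all. These were 7, 1 and 3 reads in females 2, 3 and 4, and 2 and 8 reads in males 1 and 3. SJL had 14 reads in 4 libraries and SWR 11 reads in 5 libraries. The 129 libraries had 0 reads of 94384696, which allows up to 0.0318 rpm (3 reads). The groups overlapped, since each strain had libraries with 0 reads. In rpm, B6 had 0.256 (exact Poisson 95% interval 0.158 to 0.391), SJL 0.142 (0.0774 to 0.237) and SWR 0.109 (0.0545 to 0.195), and these intervals lay above the limit in 129. Intervals and limits cover counting error only. SJL and SWR, which are known to carry rd1, had intervals that overlapped that of B6. The 2 B6 libraries with the highest background, female 2 with 21.0 rpm and female 4 with 18.2 rpm, held 7 and 3 of the reads, and B6 male 3, with 8.57 rpm, held 8. At like backgrounds by this measure, 129 male 1 (10.97 rpm) held 0 and SWR female 2 (10.99 rpm) held 3. These libraries were not alike in the number of genes with a read, 23895 in 129 male 1 and 30966 in SWR female 2.

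The rods of the retina are not a cell type of the VNO, and their markers were at low counts. All 9 rod markers were found, with sums of 33.0 to 103 normalized counts in B6, 15.5 to 47.0 in 129, 29.5 to 62.9 in SJL and 15.2 to 53.3 in SWR. Of these markers, Cnga1, Nr2e3 and Rcvrn were at 0 in 129. The set as a whole was not lowest there. The median sum of the 129 libraries, 34.8, lay above the SWR median of 30.6. It lay below the medians of SJL (46.8) and B6 (53.2). Of 21 listed phototransduction genes, 7 of which are also among the rod markers, 7 could be tested and 2 were called in at least 1 pair, beside 19.8% of all tested genes, and without B6 female 1 and 129 male 1 the filter kept 9, of which 4 were called. Sag, the rod arrestin gene, was lower in SWR than in B6 by an LFC of -1.39 (SE 0.337, edgeR FDR 0.00117), and Gucy2e, a retinal guanylate cyclase gene, was higher in SJL than in 129 by an LFC of 1.14 (SE 0.448, FDR 0.0431). Without 129 male 1 the LFC of Gucy2e was 1.04 (edgeR FDR 0.0735) and was not called. With B6 female 1 also left out, the LFC of Gucy2e was 1.07 (edgeR FDR 0.0328) and was called. Among the 6 neighbours of Pde6b, only Mfsd7a was called in some pair, beside 19.8% of all tested genes. It was higher in SJL than in B6 by an LFC of 1.14 (edgeR FDR 5.3e-05). The part of background reads in these low counts was not tested.

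Entpd4, at chr14:69337174-69367270 on the plus strand, cannot be read from these tables, because the reference holds a second copy of it. All 8304 of its stretches of the length of 1 read also occur in Entpd4b (listed as Gm21685, chr14:69555424-69585520), and the compared transcripts of both, of 3589 bases each, differ at 0 positions. The stretch below, bases 31 to 155 of the coding sequence, is shown as an example of what a read would have to tell apart. It is the same in both copies, so no base is in capitals.
Entpd4, chr14:69349095-69349219, and Entpd4b, chr14:69567345-69567469, 5′ to 3′: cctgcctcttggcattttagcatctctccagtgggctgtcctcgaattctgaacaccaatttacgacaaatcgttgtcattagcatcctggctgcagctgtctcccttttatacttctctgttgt

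A read counted here had to be placed at 1 position only. Entpd4 accordingly had 0 reads in 28 of 32 libraries. The exceptions were all 129 libraries, with 1, 4 and 2 reads in females 1, 2 and 3 and 3 reads in male 3. The 10 reads of 129 amount to 0.106 rpm (exact Poisson 95% interval 0.0508 to 0.195). The copy Gm21685 had 3 reads, all in B6. Gm16867, which lies across the end of Entpd4 on the other strand, had 67 reads in B6, with reads in 8 of 8 libraries, and 0 in the other strains, and 89.9% of its read-length stretches also occur in other genes. These values describe which reads could be placed and give no level of Entpd4. Among 15 tested genes of nucleotide hydrolysis, 3 were called in at least 1 pair, beside 19.8% of all tested genes. Nt5e, the surface enzyme that makes adenosine, was lower in 129 than in B6 by an LFC of -1.80 (SE 0.332, edgeR FDR 3.04e-05), Entpd3 by an LFC of -1.03 (SE 0.105, FDR 6.1e-10), and Entpd8 was lower in SWR than in 129 by an LFC of -2.67 (SE 0.779, FDR 0.00593). Without 129 male 1 the LFC of Entpd8 was -1.08 (edgeR FDR 0.182) and was not called. With B6 female 1 also left out, the LFC of Entpd8 was -1.17 (edgeR FDR 0.0429) and was called. With all libraries, Entpd8 was also called lower in SJL than in 129, and lower in SJL and SWR than in B6. Of the 6 neighbours of Entpd4, Adam28 and Stc1 were called in some pair, beside 19.8% of all tested genes. Both were lower in 129 than in B6, with LFCs of -1.63 (edgeR FDR 4.98e-08) and -1.06 (FDR 4.04e-09), as 8.72% of all tested genes were called.

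The levels of the genes were also set beside each other as normalized counts per kilobase of exon. The length of a gene was that of all its annotated exons, merged over its transcripts (12101 bases over 10 transcripts for Glo1). The order of different genes on this scale therefore depends on which transcripts are annotated, and the transcripts present in the VNO were not determined. Wdfy1 stood at 111 ± 10.4 in B6 and between 343 ± 14.7 and 376 ± 23.4 in the other strains (SD, n = 8). Ide had 166 ± 4.04 to 195 ± 7.17, and Atp10d 38.6 ± 7.07 in B6 and 167 ± 17.4 to 238 ± 22.5 elsewhere. The order of the means thus differed between strains, with Ide above Wdfy1 per kilobase in B6 and below it in the other strains, and Atp10d below Glo1 in B6. Glo1 had 139.5 ± 9.54 in 129 and 59.9 ± 4.49 to 65.2 ± 4.96 elsewhere, and Nnt 22.9 ± 2.49 to 42.9 ± 1.35. Casp4 stood at 5.12 ± 2.85 to 10.8 ± 1.53 and Dysf at 4.05 ± 1.20 to 7.08 ± 1.71, and Pde6b stayed under 1 in the mean of each strain. Entpd4 has no place on this scale, since its reads could not be told from those of Entpd4b.

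None of the 7 tested genes was called between the sexes. In edgeR's quasi-likelihood test of males against females over the 4 strains (absolute LFC above 1 and FDR under 0.01), 0 were called, beside 0.0381% of all tested genes. The largest absolute LFC was 0.13, for Dysf, and 1 gene, Nnt, had an unadjusted p under 0.05, with an LFC of 0.12 and an edgeR FDR of 0.401. DESeq2 called 0. Within strains, 0 were called in B6 (0.0544% of tested genes), 129 (0.0381%), SJL (0.0544%) or SWR (0.0816%), and the largest difference was that of Casp4 in 129, with an LFC of 0.62 and a 95% interval of -0.02 to 1.26. Without 129 male 1 that LFC was 0.07. An unadjusted p under 0.05 was reached by 1 gene in 129 and 1 in SJL, Nnt each time (LFC 0.29 in 129 and 0.21 in SJL), and by 0 genes in B6 and SWR. The interaction of sex and strain was called for 0 of the 7 genes (0.0163% of tested genes), with the lowest edgeR FDR at 0.532, 1 unadjusted p under 0.05 and 0 calls in DESeq2.

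The genes most like each member over the 32 libraries were found by Pearson's r of log2 (normalized count + 1), which is a description across libraries that share strains. Wdfy1 was most like the long noncoding RNA gene Miat (r = 0.99, means of 64.2 in B6 and 3504 to 5007 elsewhere) and Hist1h2al (r = 0.99). Atp10d was most like Rnf144b (r = 0.98) and Wdfy1 itself (r = 0.98), both low in B6. Glo1 was most like Dynlt1b (r = 0.98, 599 in 129 and 140.1 to 155 elsewhere), which lies 24.2 Mb away on the same chromosome, and Gm6334 (r = 0.98). Nnt was most like Gm9025 (r = 0.93) and Itga1 (r = 0.93), both on chromosome 13 within 7.45 Mb of it. Casp4 was most like the interferon-induced genes Phf11d (r = 0.87) and Ifit3b (r = 0.85), with means of 32.5 and 33.3 in 129 and 126 and 129 in B6. Ide was most like Myef2 (r = 0.91) and Elmod2 (r = 0.88), and Dysf like Rai14 (r = 0.77) and Frzb (r = 0.76).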

How the data were processed

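RNA of the VNO epithelium of 32 mice had been read as stranded pairs. Per the paper's methods, the authors trimmed adapters and low-quality ends and aligned with STAR to GRCm38 (mm10) with Ensembl genes, and the deposited counts are uniquely placed read pairs on the sense strand of each gene. A deposited signal of normalized counts holds these counts after division by size factors from DESeq2. Depth on genes was 5106398 to 18640871 reads, which limits the precision for genes with few reads. Groups came from the strain and sex in the labels. Libraries of a group came from different mice, and the 48 pairs of libraries within groups differed by 2.71 to 48.2 in chi-square per degree of freedom, so none was a repeat of another.

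The counts were tested with edgeR 4.0.16 (limma 3.58.1, R 4.3.3) with TMM factors, a low-count filter by filterByExpr on the 8 strain-by-sex groups, and quasi-likelihood F tests on all 32 libraries. Strain pairs had sex as covariate, and the sexes had strain. To be called, a gene needed a Benjamini-Hochberg FDR under 0.05 (0.01 for sex) over the 18382 genes tested and an LFC above 1 in size. SE was approximated as LFC over the root of F. DESeq2 1.42.0 served as an alternative. In counts simulated with changes of an LFC of 2 in either direction, 197 of 200 changed genes were called in the pair of 129 and B6 (17950 genes). For sex 195 were called (17979 genes) and for the interaction 176 (17987 genes), with 2, 0 and 6 unchanged genes. Smaller changes were not simulated, so these values do not give the recovery of changes near an LFC of 1.

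Genes were placed by identifier in GENCODE M21 (GRCm38), from whose transcripts the sequences were copied, and 49412 of 49671 listed genes were found there. The 9 genes, the lists of related genes and the markers were chosen with earlier results of these data known. Named beside the 9 genes are the 2 most correlated genes of each, up to 4 called genes of each list with the largest absolute LFC, and, of the 3 nearest tested genes on each side, those called where the member was called. The alternatives tried were another tool, scaling, filter, limit and sex, a block for the replicate number, the background as covariate (142 genes of other tissues), and each library left out in turn. After the values were seen, B6 female 1 and 129 male 1 were left out together.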

Additional observations from a re-analysis of the deposited data

Results flagged for a closer look

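In 64 groups of 4 libraries (a gene in 1 strain and sex, leaving out groups with equal values), a single library stood far from the other 3 by Dixon's criterion in 5, where chance gives about 1 in 20. Nnt in SJL male 1 was at 347 normalized counts, with the other males of the strain at 309 to 313. Wdfy1 in 129 female 3 was at 2628, with the others at 2485 to 2500. Casp4 in SWR female 4 was at 18.5 (24 reads), with the others at 29.2 to 30.8. Pde6b in SJL female 1 was at 1.82 (2 reads) and Entpd4 in 129 male 3 at 3.57 (3 reads), with the others at 0 in both groups. With 3 libraries at 0, any read in the 4th meets the criterion, so the chance of 1 in 20 does not apply to these 2 groups.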

How the results depend on the processing

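The 10 called differences were computed under 41 alternatives and kept their direction in each, and in 5 of 420 values, with the values first obtained counted in, they fell under the limits. These were Glo1 (LFC 0.96) and Casp4 (-0.70) in 129 against B6 with the background as covariate, Casp4 in males only (-0.83, edgeR FDR 0.0704), and Casp4 without 129 female 4 or 129 male 2. Leaving out 1 library at a time gave 3 to 4 genes called in at least 1 pair, 3 to 4 in 129 against B6, and LFCs of -1.37 to -0.98 for Casp4. The number called in 129 against B6 was 2 with the background as covariate. With no filter on low counts, Pde6b and Entpd4 were added to the calls, giving 6 genes in 129 against B6 (Pde6b FDR 0.00135, Entpd4 FDR 0.0143, edgeR), 3 in SJL against 129 and 3 in SWR against 129. DESeq2 called Pde6b in 129 against B6 (FDR 0.00788). For Entpd4 in that pair its Wald test gave an unadjusted p of 0.43 and no adjusted p. The calls of Entpd4 describe which reads could be placed and give no difference in its level. In females only, 2 were called in SJL against 129. With no limit on LFC, 7 genes were called in some pair, 6 in SJL against B6, 4 in SWR against B6, 6 in SJL against 129, 4 in SWR against 129 and 2 in SWR against SJL. The replicate number was read as the lane from the library descriptions, which do not call it one, and libraries with the same number did not deviate together (median r -0.013 over 112 pairs, and 5 of 32 libraries were closest to their own number). The replicate block left 4 genes called in at least 1 pair. Few reads limited Pde6b, Casp4 and Dysf most, and Entpd4 was limited by reads that could not be placed at 1 position.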
